A study of Mus musculus with 4 samples.

Results

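Apart from Hist3h2bb-ps and Hist1h2al, which RefSeq names as pseudogenes, the 68 genes described here encode histones, the proteins around which DNA is wound. They were chosen by name: every gene whose symbol in the deposited table begins with Hist1h, Hist2h, Hist3h or Hist4h, together with the linker histone gene H1f0. They are 68 of the 17393 genes in the table and divide into 7 linker histone (H1), 18 H2A, 18 H2B, 12 H3 and 13 H4 genes. No measured value entered the choice. H1fx, a further linker histone gene, was not analysed here.

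The study compared DS19 cells with and without Wdr26, a subunit of a ubiquitin ligase complex. DS19 is a line of mouse erythroleukemia (MEL) cells, transformed red-cell precursors that can be driven towards haemoglobin-making cells in culture. There were 4 RNA libraries, 2 of the wild-type line and 2 of the line with genotype Wdr26-/-, and the titles number the libraries of each genotype 1 and 2. The culture text, the same for all 4, mentions medium with 1.5% dimethyl sulfoxide for inducing differentiation and does not say whether the sequenced cells received it. How the Wdr26-/- cells were made, and whether they descend from 1 clone, the labels do not say. RNA was depleted of ribosomal RNA rather than selected by poly(A) tail. The labels do not state that same-genotype libraries were grown separately. P-values here therefore measure only how far these 4 samples spread, and that spread may be technical.

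A nucleosome core holds pairs of H2A, H2B, H3 and H4, and an H1 linker histone binds where DNA enters and leaves it. Most of the genes lie in clusters and are replication-dependent: their messages accumulate in S phase, when new chromatin is built, and fall away afterwards. These messages end in a short stem-loop in place of a poly(A) tail, and the stem-loop binding protein Slbp recognises it during processing, translation and decay. H1f0 differs from most of the genes here. It stands alone, its message is polyadenylated, and it is known as the replacement linker histone of cells that leave the cycle and differentiate, red-cell precursors among them.

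The stem-loop is the feature that most of the family shares, so its sequence is shown for the most abundant gene carrying it in H1, H2A, H3 and H4, for a further H4 gene, and for the H2B gene Hist1h2bk, whose loop has another form. The letters searched were GG, any 2 bases, CTT, any 1 base, T, any 1 base, AG, any 2 bases and CC, on the sense strand of GENCODE M21 transcripts. They were found in 46 of the 67 histone genes with a transcript there, starting 22 to 59 bases after the stop codon. Among 28658 transcripts of other genes 0.363% held a match anywhere in the transcript. The 2 measures differ, since histone matches were kept only after the stop codon and counted by gene. Capitals mark the 16 matched bases, the 2 arms of the stem with the loop between them, and positions are on GRCm38 (mm10).
Hist1h1c, chr13:23739512-23739527, + strand: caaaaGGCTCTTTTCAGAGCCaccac
Hist2h2aa1, chr3:96246032-96246047, + strand: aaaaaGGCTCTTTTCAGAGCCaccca
Hist1h2bk, chr13:22036300-22036315, + strand: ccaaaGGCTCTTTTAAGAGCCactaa
Hist2h3c2, chr3:96238485-96238500, - strand: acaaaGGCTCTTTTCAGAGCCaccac
Hist1h4m, chr13:21812129-21812144, + strand: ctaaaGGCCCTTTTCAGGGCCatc
Hist1h4i, chr13:22040966-22040981, - strand: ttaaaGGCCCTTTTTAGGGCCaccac

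The form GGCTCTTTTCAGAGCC was the commonest, in 26 of the 46 genes, and occurred in H1, H2A, H2B and H3 genes. H4 genes carried other arms: 7 had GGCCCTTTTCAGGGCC. No match was found in 21 genes, and in 13 of these every annotated transcript ends within 2 bases of the stop codon, so the window that would hold the letters is missing from the model. Hist1h2bq and Hist1h2br each have a short transcript of that kind and a longer one with 823 bases after the stop codon, also without a match. The transcripts of H1f0, Hist1h2bc and Hist2h2be run on for 1198, 742 and 2192 bases after the stop codon without a match. Hist1h2bc has 2 RefSeq transcripts, and only a model of 1156 bases was searched. In 23 of the 46 genes with a match the model ends within 100 bases of it, and in the other 23 it runs over 100 bases past it, as in Hist1h1c with 840 bases.

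The promoters differ by class as the stem-loops do. RefSeq (GRCm38.p6) gives windows of 250 bases before to 50 after the start for 61 of the genes, 62 windows in all, and 5 motifs were searched on both strands. CCAAT was present in 17 of 17 H2A, 16 of 16 H2B, 10 of 10 H3 and 6 of 7 H1 windows, in 3 of 12 H4 windows, and in 37.4% of all 32851 windows. The H4 element GGTCCG was present in 11 of 12 H4 windows, in 1 H2B and 1 H3 window, and in 8.25% of all windows. The H1 box AAACACA was present in 5 of 7 H1 windows against 7.18% of all, and the octamer ATTTGCAT in 6 of 17 H2A and 6 of 16 H2B windows against 1.74% of all. Every octamer of the H2A windows lay on the strand opposite to the gene, and every octamer of the H2B windows on the gene's own strand. Some windows of neighbouring H2A and H2B genes on opposite strands overlap, so the same site can be counted in both classes. The octamers between Hist1h2ah and Hist1h2bk and between Hist1h2ae and Hist1h2bg are such sites. TATAAA was present in 4 H1, 10 H2A, 7 H2B, 4 H3 and 8 H4 windows against 13.6% of all. A match is a stretch of letters and not evidence that a factor binds there.

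The bases before the start are shown for Hist1h1c, for the most abundant H4 genes Hist1h4m and Hist1h4i, and for the stretches between the divergent pairs Hist1h2ah and Hist1h2bk and Hist1h2ae and Hist1h2bg, which share 1 stretch for an H2A and an H2B gene. These are the pairs with both genes tested below. Capitals mark the motifs above, with CCAAT written ATTGG where it lies on the other strand.
Hist1h1c, chr13:23738557-23738806, + strand: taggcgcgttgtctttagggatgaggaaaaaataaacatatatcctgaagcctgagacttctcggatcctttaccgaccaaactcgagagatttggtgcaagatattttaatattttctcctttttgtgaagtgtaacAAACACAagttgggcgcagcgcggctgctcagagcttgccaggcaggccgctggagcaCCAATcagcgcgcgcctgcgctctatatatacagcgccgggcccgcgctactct
Hist1h4m, chr13:21811496-21811745, + strand: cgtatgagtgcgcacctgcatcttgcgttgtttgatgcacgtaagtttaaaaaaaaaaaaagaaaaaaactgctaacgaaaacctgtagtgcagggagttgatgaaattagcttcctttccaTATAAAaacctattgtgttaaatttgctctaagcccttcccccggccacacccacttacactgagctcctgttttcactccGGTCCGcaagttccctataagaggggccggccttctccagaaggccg
Hist1h4i, chr13:22041363-22041612, - strand: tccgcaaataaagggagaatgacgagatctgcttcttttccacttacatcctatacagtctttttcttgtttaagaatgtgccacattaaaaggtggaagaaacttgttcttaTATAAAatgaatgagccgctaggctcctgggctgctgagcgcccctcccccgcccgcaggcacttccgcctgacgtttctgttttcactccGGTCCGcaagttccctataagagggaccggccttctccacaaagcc
Between Hist1h2ah and Hist1h2bk, chr13:22035644-22035820, + strand: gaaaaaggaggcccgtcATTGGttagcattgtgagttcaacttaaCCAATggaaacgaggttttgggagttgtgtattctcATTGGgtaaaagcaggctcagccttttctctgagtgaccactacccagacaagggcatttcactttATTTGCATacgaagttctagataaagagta
Between Hist1h2ae and Hist1h2bg, chr13:23571221-23571399, + strand: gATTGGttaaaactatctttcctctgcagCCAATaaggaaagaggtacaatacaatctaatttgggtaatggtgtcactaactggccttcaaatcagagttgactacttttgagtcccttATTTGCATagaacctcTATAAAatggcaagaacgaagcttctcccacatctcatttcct
The H4 element starts 47 bases before the start of Hist1h4m and 46 before that of Hist1h4i, and the H1 box of Hist1h1c starts 112 bases before its start.

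A pair of values for a genotype is given in the order library 1, library 2. Values are FPKM, fragments scaled to transcript length and library depth, as the authors deposited them. From the smallest steps in the values of short genes, depth was estimated at 20100000 to 21400000 fragments per library, so that 1 FPKM of a 500-base transcript corresponds to 9.0 to 9.6 fragments. Wdr26 itself had wild-type values of 55.39 and 52.41 FPKM and knockout values of 9.0 and 7.84 FPKM (log2 change -2.55, SE 0.14, adjusted p = 0.0063 by limma), which fits the labels. All 9 genes of an erythroid list passed the filter described below, with a summed level of 152543 to 206733 FPKM per library, mostly from the globin genes Hba-a1 and Hbb-b1. Between genotypes 4 of the 9 were lower in both knockout libraries (10.8% of all genes tested were) and 1 was higher (29.9% were). Their median log2 change was -0.29, with single genes from -4.18 to 0.26 and 0 past the adjusted threshold. The part of these erythroid genes in the histone values was not tested. The megakaryocyte gene Itga2b was also abundant, and 5 of 6 megakaryocyte genes passed the filter. Defining genes of other cells were near 0: 1 of the 7 myeloid and mast cell genes with a value passed the filter (summed level 1.65 to 3.06 FPKM, with Elane and Cpa3 at 0 in all libraries), none of the lymphoid genes did (0.15 to 0.41 FPKM, with Cd3e and Nkg7 among those at 0), and none of the fibroblast and endothelial genes did (0.28 to 1.01 FPKM, Cdh5 at 0).

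Histone messages were dominated by 4 genes. Over the 4 libraries the mean level was at least 100 FPKM for H1f0, Hist1h1c, Hist1h4m and Hist1h2bc, and these held 85.8% of the summed histone FPKM. A further 5 genes lay between 10 and 100 FPKM, which brings the share to 94.6%. At the other end, 40 of the 68 genes had a mean under 1 FPKM, and 22 were listed at 0 in at least 1 library. Hist1h4n was listed at 0 in all 4.

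**Figure D1:**
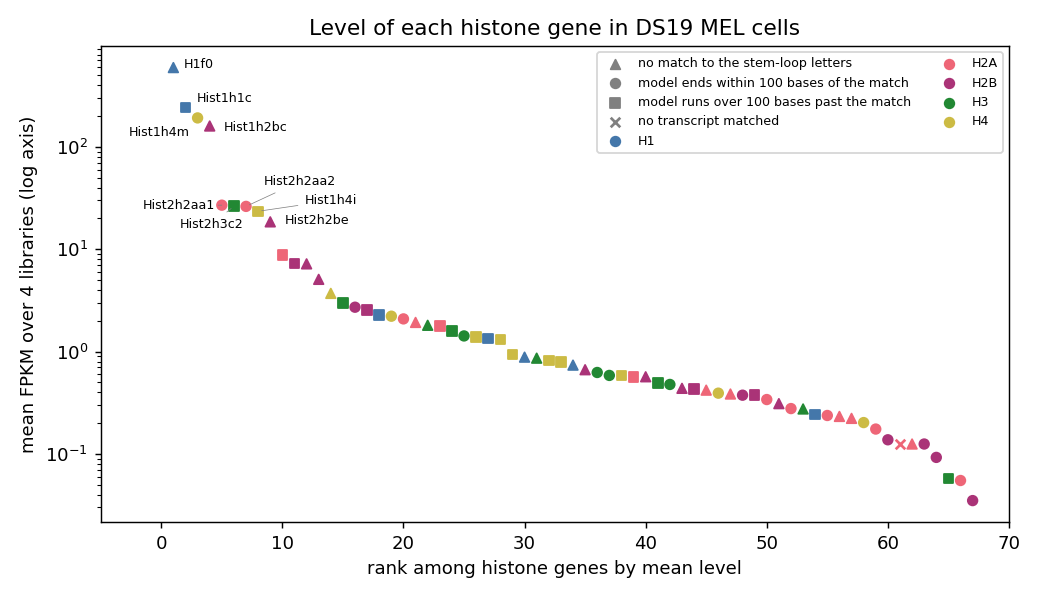
Mean FPKM over the 4 libraries (log axis) of the histone genes in order of level, coloured by class and shaped by the stem-loop letters in the transcript model. H1f0 leads, 4 genes lie above 100 FPKM, and Hist1h4n, at 0 in every library, cannot be drawn on the log axis.

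High and low genes were found both with and without a match to the stem-loop letters. The median of the mean levels was 0.375 FPKM for genes whose model ends within 100 bases of the match, 1.34 FPKM for those whose model runs past it and 0.738 FPKM for those without a match. In 13 of the 21 genes without a match every annotated transcript ends within 2 bases of the stop codon. Those 13 cannot show the letters, so these medians do not compare genes with and without a stem-loop. The most abundant genes came from all of these sets: H1f0 and Hist1h2bc have no match, Hist1h1c runs past its match, and the model of Hist1h4m ends 3 bases after it.

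Genes of a divergent H2A and H2B pair could differ widely in level. Among 12 such pairs with starts within 600 bases of each other, the H2B gene had the higher mean in 8. The mean was 0.568 FPKM for Hist1h2ac beside 160 FPKM for its neighbour Hist1h2bc, and 0.238 FPKM for Hist2h2ac beside 18.5 FPKM for Hist2h2be. The reverse order held for Hist3h2a, at 8.75 FPKM, and the pseudogene Hist3h2bb-ps, at 0.438 FPKM, though Hist3h2a overlaps Trim17 on the same strand. These 3 pairs were chosen after their values were seen.

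H1 genes made up most of the histone signal in every library. Their share of the summed histone FPKM was 60.9% and 59.5% in wild-type libraries 1 and 2 and 61.9% and 60.8% in knockout libraries 1 and 2. The H2B share was 15.4% and 17.5% in wild type and 13.0% and 14.0% in the knockout, so both knockout values lay under both wild-type values. The H2A share was likewise lower in both knockout libraries (4.6% and 4.7% against 5.5% and 5.6%), and the H4 share was higher in both (17.2% and 19.1% against 15.0% and 15.2%). H3 held 3.2%, 2.3%, 3.4% and 1.4% in the same order, with the genotypes overlapping. These shares add to a whole, so a shift in 1 class moves the others, and no test was run on them.

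The genotypes were compared with limma on log2(FPKM + 1), a scale that understates changes of low genes, over the 10670 genes that reached 1 FPKM in 2 or more libraries. Of the histone genes 31 passed this filter: 5 H1, 6 H2A, 7 H2B, 7 H3 and 6 H4. The other 37 comprise 30 that never reached 1 FPKM and 7 that reached it in a single library, which was wild-type library 1 for 5 of them. None of the 31 passed an adjusted p of 0.05, where 0.0937% of all genes tested did. At an unadjusted p under 0.05 there were 5 (Hist1h2ah, Hist1h2bg, Hist1h2bq, Hist3h2a and Hist1h3i), all lower in the knockout, against 11.4% of all genes tested in either direction. The number called depends on single libraries: it was 13 without knockout library 1 (6.92% of all genes tested) and 3 without knockout library 2 (3.07%).

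Counted by whether the genotypes overlap, in 7 of the 31 genes both knockout values lay under both wild-type values, a pattern shown by 10.8% of all genes tested. The reverse, both knockout values higher, was shown by 0 of the 31 and by 29.9% of all genes tested. The median log2 change was -0.18 over the 31 genes and 0.07 over all genes tested. In bulk RNA, fewer cells that make a histone message and less of it per cell cannot be told apart. The count of genes lower in both was 19 without wild-type library 2, where 28.7% of all genes tested were lower, and 22 without knockout library 1, where 30.8% were. It was 7 with either of the other libraries left out, wild-type library 1 (15.4% of all genes tested) or knockout library 2 (22.1%). The count of genes higher in both was 6 without wild-type library 1, where 50.1% of all genes tested were higher. It was 1 when wild-type library 2 was left out and 11 when knockout library 2 was, where 37.3% and 51.5% of all genes tested were higher, and 0 when knockout library 1 was, where 44.8% were. The median turned to 0.19 without knockout library 2. With the near-identical copies Hist1h2bq and Hist1h2br summed to 1 value, and Hist2h2aa1 and Hist2h2aa2 likewise, 6 of 29 values were lower in both knockout libraries, and the count higher in both was 0.

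**Figure D2:**
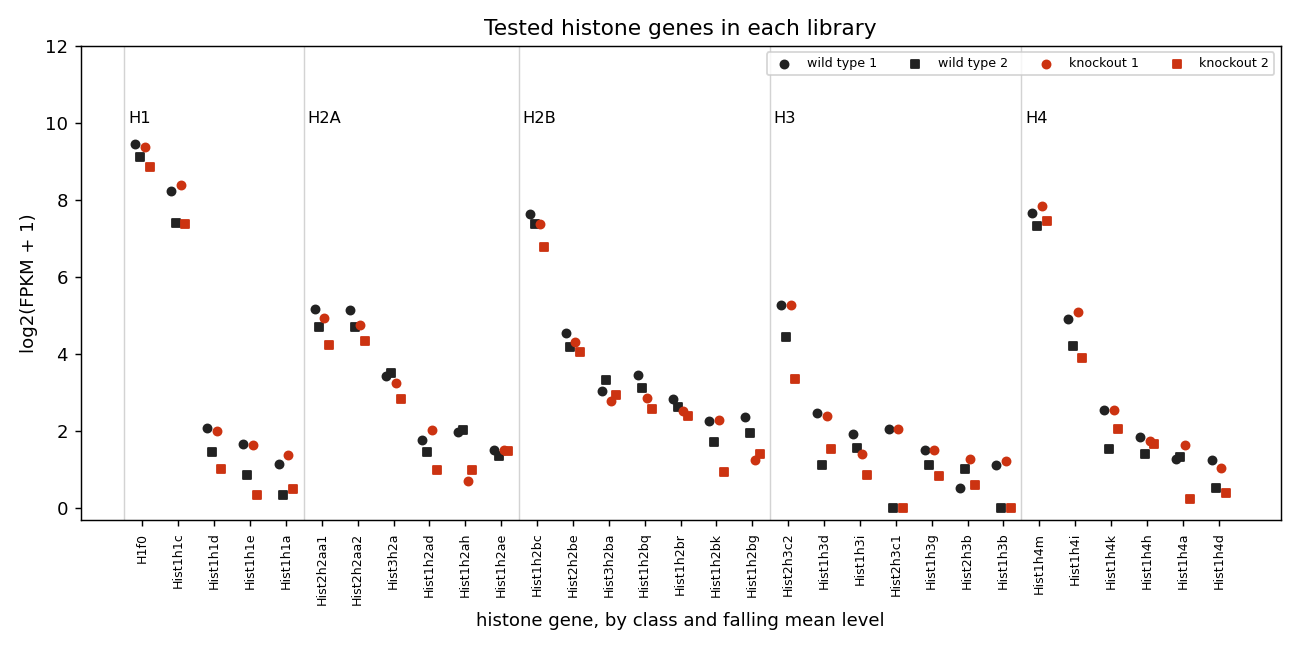
Level of the 31 tested histone genes in each library as log2(FPKM + 1), with wild type in black, knockout in red, library 1 as circles and library 2 as squares. For most genes the squares lie under the circles of the same colour, and Hist1h2ah, Hist1h2bg and Hist1h2bq show both red points under both black points.

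H1f0, the replacement linker histone, was the highest histone gene in each of the 4 libraries (chr15:79028212-79030504, + strand, overlapping Gm49544 on the other strand). It stood at 705.95 and 556.11 FPKM in wild-type libraries 1 and 2 and at 658.52 and 464.34 FPKM in knockout libraries 1 and 2. The genotypes overlapped, and library 2 was the lower of each pair (log2 change -0.18, SE 0.22, adjusted p = 0.85 by limma). Without knockout library 2 the log2 change of H1f0 was 0.07.

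Hist1h1c, which encodes the linker histone H1.2, was second in level (chr13:23738807-23739531, + strand). It had wild-type values of 300.88 and 169.91 FPKM and knockout values of 336.92 and 164.56 FPKM. Library 2 of each genotype lay well under library 1, at 0.565 of it in wild type and 0.488 in the knockout, while the genotypes hardly differed (log2 change 0.06, SE 0.40, adjusted p = 0.98). That sign turned on median-centring, to -0.02. The ratio of H1f0 to Hist1h1c therefore moved with library number: it was 2.35 and 3.27 in wild type and 1.95 and 2.82 in the knockout, lower in the knockout at each number but overlapping between genotypes.

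The other 5 linker histone genes together summed to 8.37 and 3.81 FPKM with Wdr26 intact and to 7.8 and 1.94 FPKM without it, under 1% of the H1 sum in each library. Hist1h1d (H1.3) stood at 3.27, 1.74, 3.05 and 1.04 FPKM in wild-type libraries 1 and 2, then knockout libraries 1 and 2. Hist1h1e (H1.4), which overlaps Hist1h2be on the same strand, stood at 2.16, 0.83, 2.11 and 0.27 FPKM in that order. Hist1h1a (H1.1) stood at 1.24, 0.27, 1.59 and 0.43 FPKM. All 3 were high in the libraries numbered 1 and low in those numbered 2, with the genotypes overlapping. The log2 changes were -0.25 for Hist1h1d, -0.28 for Hist1h1e and 0.19 for Hist1h1a, each with the opposite sign when 1 library was left out. Hist1h1b (H1.5), at 1.35, 0.56, 0.84 and 0.2 FPKM, and the testis linker histone Hist1h1t, at 0.35, 0.41, 0.21 and 0 FPKM, did not pass the filter.

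H2A genes tended to lower values in the knockout, with a median log2 change of -0.36 over the 6 tested. Of these 2 were lower in both knockout libraries, against 10.8% of all genes tested. Hist2h2aa1 and Hist2h2aa2 are neighbouring copies on chromosome 3, and all 50-base stretches of the Hist2h2aa2 transcript recur in Hist2h2aa1, so their values cannot be separated with certainty. Hist2h2aa1 (chr3:96245497-96246052, + strand) measured 34.97 and 25.14 FPKM in wild-type cells against 29.87 and 17.91 FPKM in knockout cells (log2 change -0.34, adjusted p = 0.73). Hist2h2aa2 reached 34.32 and 25.3 FPKM with Wdr26 intact, and 25.97 and 19.37 FPKM without it (log2 change -0.38, adjusted p = 0.59). For both copies the knockout library was lower than the wild-type library of the same number, yet the genotypes overlapped.

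Hist3h2a, the H2A gene of the small cluster on chromosome 11, overlaps Trim17 on the same strand (chr11:58954685-58955192, + strand). It had wild-type values of 9.88 and 10.48 FPKM and knockout values of 8.5 and 6.15 FPKM, with no overlap between genotypes (log2 change -0.44, SE 0.18, adjusted p = 0.43 by limma). Unlike most of the genes it was not lower in wild-type library 2.

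Hist1h2ah showed the largest log2 change of the 31 genes (chr13:22035122-22035643, - strand). It measured 2.95 and 3.13 FPKM in wild-type cells against 0.63 and 1.0 FPKM in knockout cells, so that the knockout mean was 26.8% of the wild-type mean. The gap between genotypes was far wider than that between libraries of a genotype (log2 change -1.16, SE 0.18), but the p adjusted over all genes was 0.12 by limma. Its log2 change ran from -1.31 to -1.01 as each library was left out. At this level the values rest on few fragments, and 92.1% of the 50-base stretches of its transcript recur in another gene, Hist1h2ad most of all. Its divergent neighbour Hist1h2bk stood at 3.79, 2.29, 3.87 and 0.91 FPKM in wild-type libraries 1 and 2, then knockout libraries 1 and 2, with the genotypes overlapping. Hist1h2ae had the highest log2 change among H2A genes, with 1.85 and 1.56 FPKM in wild-type cells against 1.88 and 1.81 FPKM (log2 change 0.07, and -0.002 when median-centred), well within its spread.

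H2B genes were lower on the log2 scale in the knockout for 7 of 7 tested, with a median log2 change of -0.38. Of the 7 genes 4 were lower in both knockout libraries, against 10.8% of all genes tested. With the copies Hist1h2bq and Hist1h2br summed this count was 3 of 6. Hist1h2bc held most of the class, 74.5% to 79.1% of the summed H2B FPKM (chr13:23684199-23692480, + strand). It reached 199.0 and 166.08 FPKM with Wdr26 intact, and 166.75 and 108.64 FPKM without it. Knockout library 1 lay just above wild-type library 2, so the genotypes overlapped (log2 change -0.43, SE 0.23, adjusted p = 0.57 by limma).

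Hist2h2be, whose transcript shares no 50-base stretch with another gene, had wild-type values of 22.27 and 17.33 FPKM and knockout values of 18.77 and 15.75 FPKM (log2 change -0.18, adjusted p = 0.79), the smallest difference among the tested H2B genes. Hist3h2ba measured 7.25 and 9.05 FPKM in wild-type cells against 5.95 and 6.71 FPKM in knockout cells (log2 change -0.31, adjusted p = 0.56). The genotypes did not overlap in Hist3h2ba, and it is 1 of only 2 tested histone genes that were higher in library 2 of both genotypes, the other being Hist1h2ah.

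Hist1h2bg had the most negative log2 change among H2B genes (chr13:23571400-23571863, + strand). It reached 4.21 and 2.88 FPKM with Wdr26 intact, and 1.38 and 1.67 FPKM without it, whose mean was 43.0% of the wild-type mean (log2 change -0.83, SE 0.20, adjusted p = 0.24 by limma). The genotypes did not overlap, while its divergent partner Hist1h2ae, described above, did. Hist1h2bq and Hist1h2br, named after their values were seen, were the remaining H2B genes lower in both knockout libraries. Hist1h2bq had wild-type values of 9.92 and 7.7 FPKM and knockout values of 6.22 and 4.96 FPKM (log2 change -0.57, adjusted p = 0.34 by limma). Its value includes a transcript assembled from the reads, and that of Hist1h2br does not. Hist1h2br measured 6.16 and 5.17 FPKM in wild-type cells against 4.76 and 4.23 FPKM in knockout cells (log2 change -0.28). These are near-identical copies, sharing 99.8% or more of their 50-base stretches, and count as 1 observation rather than 2.

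H3 genes differed more between library numbers than between genotypes. Hist2h3c2 led the class, with 65.0% to 75.0% of the summed H3 FPKM. It reached 37.52 and 20.75 FPKM with Wdr26 intact, and 37.91 and 9.2 FPKM without it, so that the libraries numbered 1 were level and those numbered 2 were apart (log2 change -0.54, SE 0.61, adjusted p = 0.84 by limma). Without knockout library 2 its log2 change was 0.43, and without knockout library 1 it was -1.50. Its neighbour Hist2h3c1, named after its values were seen, stood at 3.19 and 3.18 FPKM in the libraries numbered 1 and was listed at 0 in both numbered 2. Hist2h3c2 shares 63.5% of its 50-base stretches with Hist2h3c1. Both Hist2h3c1 and Hist1h3b passed the filter only through the libraries numbered 1.

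Hist1h3i was the tested H3 gene with the most negative log2 change and the only one lower in both knockout libraries, at 2.79 and 1.96 FPKM against 1.66 and 0.82 FPKM (log2 change -0.61, SE 0.25, adjusted p = 0.43 by limma). Hist1h3d had wild-type values of 4.61 and 1.17 FPKM and knockout values of 4.25 and 1.91 FPKM (log2 change 0.16). Hist2h3b measured 0.45 and 1.03 FPKM in wild-type cells against 1.45 and 0.52 FPKM in knockout cells (log2 change 0.17). In Hist1h3d and Hist2h3b the genotypes overlapped, and the sign turned when 1 library was left out. The median log2 change over the 7 tested H3 genes was -0.002, and it was 0.007 after quantile normalization.

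H4 genes showed no genotype shift larger than their spread: 0 of 6 had genotypes that did not overlap, and the median log2 change was 0.01, turning to -0.05 after quantile normalization and -0.06 after median-centring. Hist1h4m, whose value includes transcripts assembled from the reads beside the annotated one, made up 81.0% to 88.8% of the H4 sum (chr13:21811746-21812150, + strand). It reached 201.91 and 160.4 FPKM with Wdr26 intact, and 230.18 and 175.97 FPKM without it (log2 change 0.16, SE 0.19, adjusted p = 0.85 by limma). The knockout value was the higher at each library number, and the genotypes overlapped. Of its 50-base stretches 89.8% recur in Hist1h4n, the copy listed at 0 in every library, so how reads were divided between the copies bears on both values.

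Hist1h4i (chr13:22040960-22041362, - strand) had wild-type values of 28.98 and 17.55 FPKM and knockout values of 33.46 and 14.02 FPKM (log2 change -0.05, SE 0.41, adjusted p = 0.98 by limma). The knockout was higher among the libraries numbered 1 and lower among those numbered 2. Hist1h4k had the highest log2 change of the tested H4 genes, with 4.91 and 1.92 FPKM in wild-type cells against 4.85 and 3.14 FPKM (log2 change 0.24). Hist1h4a had the lowest, with 1.45 and 1.52 FPKM in wild-type cells against 2.12 and 0.18 FPKM (log2 change -0.37). Both rest on 1 low library, and both turned sign when 1 library was left out.

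**Figure D3:**
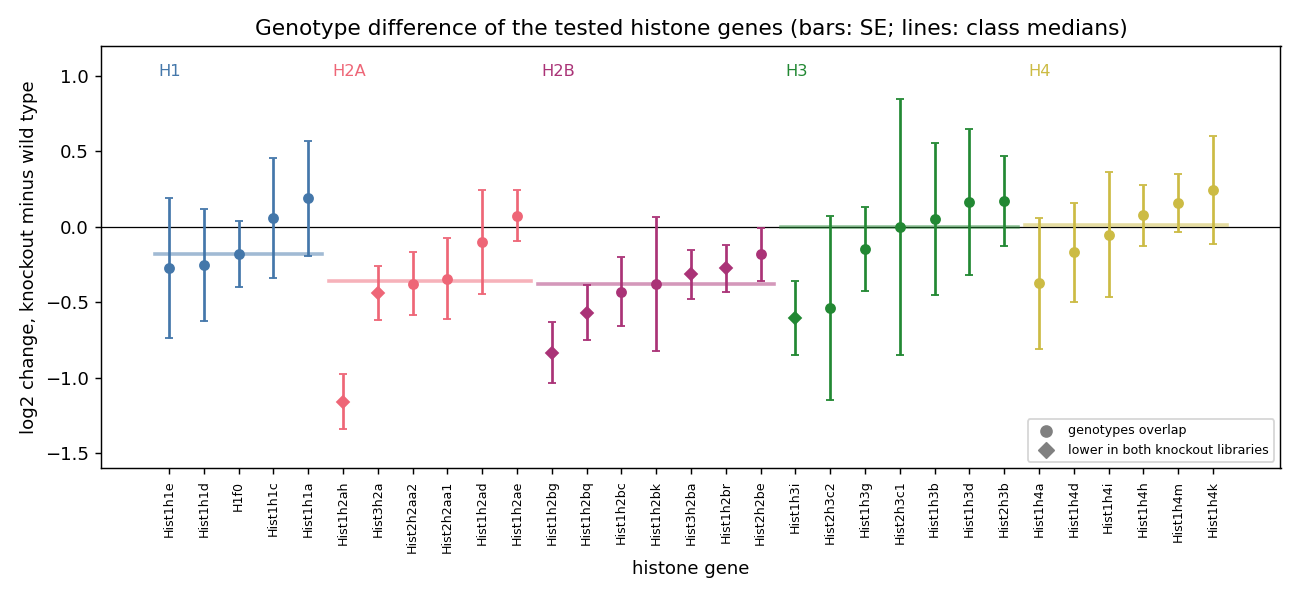
Log2 change, knockout minus wild type on log2(FPKM + 1), of the 31 tested histone genes, ordered within each class; bars are the standard error from limma, horizontal lines are class medians, and diamonds mark genes lower in both knockout libraries. The H2A and H2B medians lie at -0.36 and -0.38, the H3 and H4 medians at -0.002 and 0.01, and 6 of the 7 diamonds are H2A or H2B genes.

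Set side by side, the H2A and H2B genes and the rest had different counts. Of the 13 tested H2A and H2B genes 6 were lower in both knockout samples, where 10.8% of all genes tested were. Of the 13, 12 had a negative log2 change, with a median of -0.38, where 4010 of all 10670 genes tested had a negative change. Of the 18 tested H1, H3 and H4 genes 1 was lower in both and 10 had a negative change, with a median of -0.03. Comparing libraries of the same number, 10 of the 13 H2A and H2B genes were lower in the knockout at both numbers and 5 of the 18 others were, where 22.2% of all genes tested were. With the near-identical copies summed, 5 of 11 H2A and H2B values were lower in both knockout libraries, 10 of 11 had a negative change and 8 of 11 were lower at both numbers. This grouping was made after the values were seen, and the difference between classes was not tested. Among the 16 tested genes with under 50% of their 50-base stretches shared with another gene, 3 were lower in both knockout libraries, and the count of genes higher in both was 0. Over all genes tested 10.8% were lower in both and 29.9% were higher in both. The H2A and H2B medians were negative under each alternative run, including each library left out (-0.63 to -0.08 for H2A and -0.71 to -0.21 for H2B), whereas those of H1, H3 and H4 took both signs.

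Most of the family also differed by library number. Of the 31 tested genes 25 had the lower value in library 2 for each genotype and 2 were higher in both, where 46.5% and 24.0% of all genes tested were. By class this held for 5 of 5 H1, 4 of 6 H2A, 5 of 7 H2B, 6 of 7 H3 and 5 of 6 H4 genes. The median log2 difference, library 2 minus library 1, was -0.43 in wild type and -0.65 in the knockout, against -0.10 and -0.04 over all genes tested. It was widest in H3, at -0.82 and -0.85, and in H1, at -0.79 and -0.99, and narrower in H2A (-0.23 and -0.41) and H2B (-0.33 and -0.24). Hist1h1a, Hist1h1e, Hist1h3b, Hist2h3c1 and Hist1h4d reached 1 FPKM only in the libraries numbered 1. They passed the filter through those libraries, so the filter itself fixed that they were lower in library 2. The H1, H3 and H4 counts and medians above include them.

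**Figure D4:**
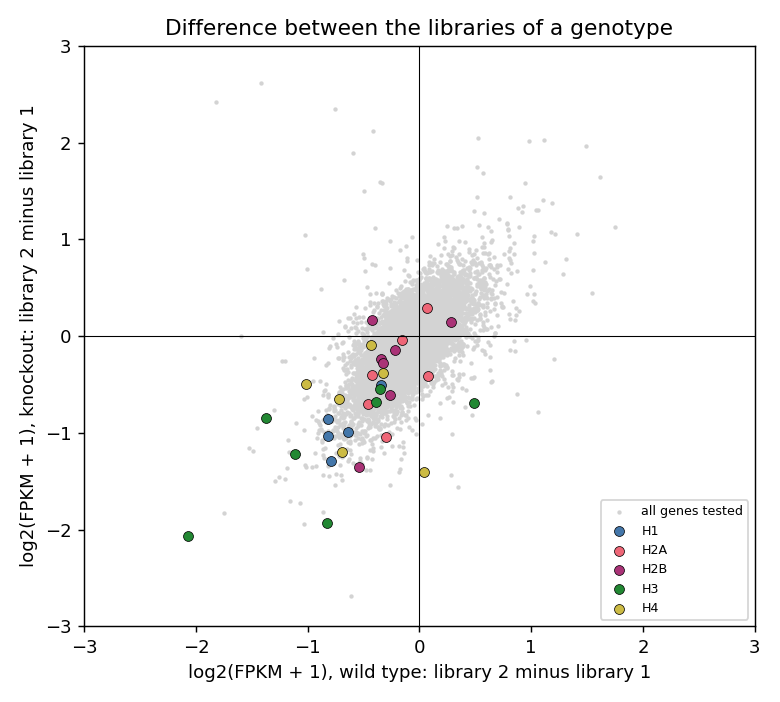
Difference between library 2 and library 1 on the log2(FPKM + 1) scale, wild type on the horizontal axis and knockout on the vertical axis, for all genes tested (grey) and the histone genes (coloured by class). Of the 31 histone genes 25 lie in the lower left of the plot, lower in library 2 of both genotypes; 4 other genes lie outside the axes, which end at 3.

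The whole family followed the same order. The summed histone level was 1667 and 1227 FPKM in wild-type libraries 1 and 2 and 1621 and 1038 FPKM in knockout libraries 1 and 2, or 0.268%, 0.183%, 0.255% and 0.161% of all FPKM. Genes at 1 FPKM or more numbered 35, 26, 31 and 22, and genes listed at 0 numbered 4, 10, 7 and 17. Estimated depth was 20800000, 21400000, 20900000 and 20100000 fragments in the same order, so the shallowest library was knockout library 2 and the deepest wild-type library 2.

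Within library numbers, the genotypes were closer among the libraries numbered 1. The median log2 difference over the 31 genes, knockout minus wild type, was -0.08 among the libraries numbered 1, with 19 genes lower in the knockout, and -0.37 among those numbered 2, with 23 lower. All genes tested had medians of 0.05 and 0.09, with 41.1% and 35.7% lower. H2B medians were -0.25 and -0.54 and H2A medians -0.21 and -0.47, while H4 medians were 0.09 and -0.002. The labels do not say what the library number stands for.

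Genes that work in S phase moved with library number too. All 20 of a list of DNA replication and cell cycle genes passed the filter, and 20 of 20 were lower in library 2 of both genotypes (46.5% of all genes tested were), with medians of -0.70 in wild type and -0.98 in the knockout. Pcna, the sliding clamp of DNA polymerase, measured 116.85 and 72.57 FPKM in wild-type cells against 104.83 and 49.59 FPKM in knockout cells. Ccna2, the S and G2 phase cyclin, reached 48.95 and 43.22 FPKM with Wdr26 intact, and 37.41 and 32.63 FPKM without it. Between genotypes the list had a median log2 change of -0.21, with 2 genes lower in both knockout libraries (10.8% of all genes tested were), 0 higher and 0 past the adjusted threshold. Of the 20 genes 18 had a negative change and 15 were lower in the knockout at both library numbers, against 22.2% of all genes tested. The part of S phase share in the histone values was not tested.

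Genes that process or transcribe histone messages did not move as 1 group. Of 22 such genes, among them Slbp and Npat, 21 were tested: 4 were higher in both knockout libraries (29.9% of all genes tested were), 3 lower (10.8% were) and 0 past the adjusted threshold, with a median log2 change of -0.03. Sympk, the scaffold of the cleavage complex, had wild-type values of 51.47 and 55.48 FPKM and knockout values of 62.85 and 67.95 FPKM, without overlap (log2 change 0.29, adjusted p = 0.49 by limma). Srrt, which links the cap-binding complex to RNA processing, measured 53.45 and 38.13 FPKM in wild-type cells against 67.48 and 47.11 FPKM in knockout cells, with overlap (log2 change 0.31, adjusted p = 0.71). Slbp, named after its values were seen, stood at 59.62, 42.61, 55.27 and 40.62 FPKM in wild-type libraries 1 and 2, then knockout libraries 1 and 2, with library 2 the lower of each genotype. Of the 21 tested genes 14 were lower in library 2 of both genotypes, where 46.5% of all genes tested were.

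The 20 histone chaperone and deposition genes were all tested, and 2 were higher in both knockout libraries, 2 lower and 0 past the adjusted threshold (median log2 change 0.04), beside the same shares of 29.9% and 10.8% over all genes tested. Rbbp7, a histone-binding subunit of several chromatin complexes, reached 73.4 and 59.34 FPKM with Wdr26 intact, and 69.17 and 54.25 FPKM without it. Cabin1, a subunit of the HIRA complex, had wild-type values of 57.28 and 63.8 FPKM and knockout values of 54.46 and 66.4 FPKM. Both overlapped between genotypes. Of the list, 17 genes were lower in library 2 of both genotypes, where 46.5% of all genes tested were.

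Most replacement histone variants are made throughout the cell cycle from polyadenylated messages, and 8 of 9 were tested. Of these 1 was higher in both knockout libraries (29.9% of all genes were), 2 were lower (10.8% were) and 0 passed the adjusted threshold, with a median log2 change of -0.10. H3f3a, a gene for H3.3, measured 905.57 and 704.57 FPKM in wild-type cells against 854.48 and 644.56 FPKM in knockout cells (log2 change -0.11, adjusted p = 0.91 by limma), above every gene of the 68 per length. H2afz, the gene for H2A.Z, reached 391.84 and 389.3 FPKM with Wdr26 intact, and 310.49 and 230.64 FPKM without it, without overlap (log2 change -0.54, SE 0.18, adjusted p = 0.35). The H2afz values were level between the wild-type libraries and lower in both knockout libraries. H2afx, the gene for H2A.X, named after its values were seen, stood at 173.73, 121.32, 165.74 and 65.87 FPKM in wild-type libraries 1 and 2, then knockout libraries 1 and 2, in the order seen for most of the 68 genes.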

How the data were processed

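RNA of 4 libraries, 2 wild type and 2 Wdr26-/-, was depleted of ribosomal RNA and sequenced, per the labels' protocols. The authors deposited 1 table with a column per library. No unit is named in its header. The deposited values were taken as FPKM because value times transcript length sums to between 1.02e+09 and 1.04e+09 in every library. The submitters' processing notes name TopHat2 and mm10. The program that computed the values, its treatment of reads that fit several copies and the strand setting are not given in the sources used here. Values of 6 of the 68 genes include transcripts assembled from the reads: Hist1h1d, Hist1h2bk, Hist1h2bn, Hist1h2bq, Hist1h3d and Hist1h4m. A value of 0 can be a failed estimate.

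Groups and library numbers come from the labels. Values were converted to log2(FPKM + 1), filtered at 1 FPKM in at least 2 libraries and compared with limma 3.58.1 in R 4.3.3 (mean-variance trend, no covariates) over all 10670 genes kept. Benjamini-Hochberg adjustment was made over these genes, with a threshold of 0.05. The fit was tested on simulated data. An exact permutation test of 2 libraries against 2 cannot reach that threshold, so none was run. Fixed lists were used for companion genes and cell markers, and 1 marker is not reported here. Genes named are Wdr26, every H1 gene, the 3 highest genes of each other class and its highest and lowest log2 change, and the 2 most abundant genes of each companion list; others are said to be chosen after their values were seen. The histone genes and the lists were chosen with earlier results of these data known. Transcript sequences came from GENCODE M21 and promoter windows from RefSeq. Shared sequence was counted in stretches of 50 bases. Depth was estimated from value steps assuming that effective length is 50 bases short of transcript length; with 200 bases it would be 25100000 to 26700000 fragments. Alternatives were median-centring, quantile normalization, 2 other filters, no trend, a pseudocount of 0.1, the replicate block, globin genes left out, each library left out and 1 sum per class. A restriction to genes with little shared sequence and a sum of near-identical copies were added after seeing the data.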

Additional observations from a re-analysis of the deposited data

How the results depend on the processing

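The number of genes past the adjusted threshold was 10 over all genes tested. It was 0 without a filter, 2 above a mean of 5 FPKM, 21 with globin genes left out, and 3 to 738 when 1 library was left out. Histone genes past it numbered 0, and 0 to 13 when 1 library was left out, with 13 without knockout library 1. With the library number as a replicate block there were 1863 calls over all genes (17.5%) and 9 among the 31 histone genes. Deviations of same-numbered libraries correlated at 0.61 over all genes tested, but there are only 2 pairs and the labels do not say what a number marks.

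Histone genes lower in both knockout libraries numbered 7 of 31, where 10.8% of all genes tested were. They numbered 13 of 67 without a filter, 4 of 13 above that mean and 3 of 16 among genes with under 50% shared sequence. When 1 library was left out they numbered 7 to 22 of 31, where 15.4% to 30.8% of all genes tested were lower. Those higher in both numbered 0 of 31, where 29.9% of all genes tested were, and 2 of 67 without a filter. When 1 library was left out they numbered 0 to 11 of 31, where 37.3% to 51.5% of all genes tested were higher. Those lower in library 2 of both genotypes numbered 25 of 31, where 46.5% of all genes tested were. They numbered 40 of 67 without a filter and 11 of 13 above that mean. Shares over all genes without a filter or above that mean are not given here, so these counts have no such comparison. The H2B median of -0.38 became -0.21 without a filter, and the H3 median became -0.54 above that mean, where Hist2h3c2 alone is left. With 1 library left out, class medians ran from -0.46 to 0.37 in H1, -0.63 to -0.083 in H2A, -0.71 to -0.21 in H2B, -0.56 to 0.51 in H3 and -0.31 to 0.34 in H4, and from -0.58 to 0.19 over all tested histone genes. The lone library then left in a genotype is assumed to vary like the others. Why settings moved a value was not tested, except that filters change which genes are counted.

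Signs turned on median-centring in Hist1h1c (-0.018) and Hist1h2ae (-0.0021). With 1 library left out, log2 changes ran from -0.43 to 0.072 in H1f0, -0.46 to 0.57 in Hist1h1c, -0.75 to 0.24 in Hist1h1d, -0.92 to 0.37 in Hist1h1e, -0.24 to 0.62 in Hist1h1a, -0.70 to 0.0097 in Hist2h2aa1 and -0.0026 to 0.15 in Hist1h2ae. They ran from -1.50 to 0.43 in Hist2h3c2, -0.52 to 0.85 in Hist1h3d, -0.17 to 0.51 in Hist2h3b, -0.032 to 0.35 in Hist1h4m, -0.65 to 0.55 in Hist1h4i, -0.26 to 0.75 in Hist1h4k and -1.07 to 0.33 in Hist1h4a. Of the remaining values of single genes, 208 kept their sign and side of the threshold and 20 kept their sign and passed it, under the block or with a library left out.

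Each genotype has 2 libraries, and 1 FPKM is worth 9.0 to 9.6 fragments of a 500-base transcript, which limits what can be detected in low genes.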
